A study of Danio rerio with 6 samples.

Results

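The 10 genes described here encode enzymes of cholesterol synthesis, chosen by name and taken in pathway order: *hmgcs1*, *hmgcra*, *idi1*, *fdps*, *fdft1*, *sqlea*, *lss*, *cyp51*, *msmo1* and *dhcr7*. They are 10 of the 31953 genes in the table, and all 10 were among the 20812 genes with enough reads to be tested. RNA came from whole zebrafish embryos at 30 hours post fertilisation (hpf), in 3 libraries of *dancr* del F0 crispants and 3 libraries of mock control embryos. *dancr* is a long non-coding RNA gene, and the comparison asks how transcript levels differ when its promoter has been deleted. Crispants received Cas9 ribonucleoproteins made with a pool of 4 crRNAs, injected into the yolk at the single cell stage. They are injected founders, so cells of 1 embryo can carry different deletions, and only embryos with the more severe Class I and II abnormalities, in which necrosis was prominent, were taken. Mock control embryos were injected with a mix that contained no crRNA against *dancr*. About 30 embryos were used in each group, all of the wild type AB strain, and whether that number holds for each library is not given in the sources used here. The 4 crRNA target sequences are printed because they are all that the injection mix of the crispants had and that of the mock controls did not, each 5′ to 3′ with no base marked:
dancr-1: actccccaaatcatctgaag
dancr-2: tctgagccccctgactgaag
dancr-3: tttgcacaatccctgagagc
dancr-4: aaagcccactataactgttc

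Cholesterol is built from acetyl-CoA. The mevalonate steps make isoprenoid units, these are joined to squalene, squalene is folded into lanosterol, and lanosterol is trimmed and rearranged to cholesterol. In mammals the whole series is switched on together by the transcription factor SREBP2 when membrane sterol is low, and HMG-CoA reductase is the main point of control. Early zebrafish embryos also hold maternal cholesterol in the yolk, and cholesterol is needed for membranes and is attached to Hedgehog proteins.

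Libraries held 34425861, 40515803 and 36082136 counts in crispants and 33841805, 37098885 and 38146940 counts in mock controls. The TMM scaling factors were 0.988 to 1.14 in crispants and 0.749 to 1.07 in mock controls, and the lowest was that of mock control replicate 3, which stands apart from the other mock controls in several genes below. At the edited locus the table gives SNORA26, a small nucleolar RNA on chromosome 20 (GRCz10 chr20:23182969-23183090), with 0, 7 and 4 counts in crispants and 22, 8 and 16 in mock controls; the spliced *dancr* transcript was not analysed here. Markers of 5 tissues that a whole embryo should hold, yolk syncytial layer and liver, nervous system, skeletal muscle, blood and epidermis, were all present, with no marker at 0 counts throughout.

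With all 6 libraries in edgeR, none of the 10 enzymes differed between crispants and mock controls beyond the spread between libraries. The study's threshold was an adjusted p (Benjamini-Hochberg) no higher than 0.05 together with a change of 1 or more on the log2 scale. The study applied it in DESeq2 and reported steroid biosynthesis among the pathways enriched in the genes it called. Which genes carried that enrichment was not examined here. With the same threshold, up or down, edgeR's quasi-likelihood test called 0 of the 10 enzymes. The same test called 0% of all 20812 tested genes. At an unadjusted p below 0.05 it found 0 of the 10 enzymes and 5.49% of all tested genes, 1142 in number. Unadjusted p-values of the enzymes ran from 0.0882 to 0.889, and their adjusted p-values from 0.989 to 0.999. The groups overlapped for all 10 enzymes. Among all tested genes, crispants lay wholly above mock controls for 6.5% and wholly below for 5.44%. At these shares, 0 of 10 says little about the enzymes. DESeq2's Wald test called 0.794% of all genes it tested, limma-voom with sample quality weights 1.56%, and edgeR without mock control replicate 3 called 0.0935%, in each case with 0 of the 10 enzymes. In limma-voom with sample quality weights, the unadjusted p was 0.00521 for *msmo1*, 0.00899 for *hmgcra*, 0.0311 for *cyp51* and 0.0384 for *hmgcs1*, all higher in crispants. It was 0.0475 for *sqlea*, lower in crispants (adjusted p = 0.256), and above 0.05 for the other enzymes. The share of all tested genes below 0.05 in that setting was not counted, and the 5.49% above is that of edgeR. The adjusted p-values in that setting ran from 0.0994 to 0.925.

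Fitted log2 fold changes, crispants over mock controls, were above 0 for 8 of the 10 enzymes and below 0 for *idi1* and *fdps*. Among all tested genes 45.5% were above 0. The median over the enzymes was 0.33, against -0.04 over all tested genes, and the lowest and highest were -0.26 and 0.94. The 95% interval of the log2 fold change held 0 for all 10 enzymes and reached 1 or more for 5 of them, *hmgcra*, *fdft1*, *lss*, *cyp51* and *msmo1*, so a doubling of these 5 was within the error. In a whole-embryo library, fewer cells that make a transcript and less transcript per cell cannot be told apart.

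**Figure D1:**
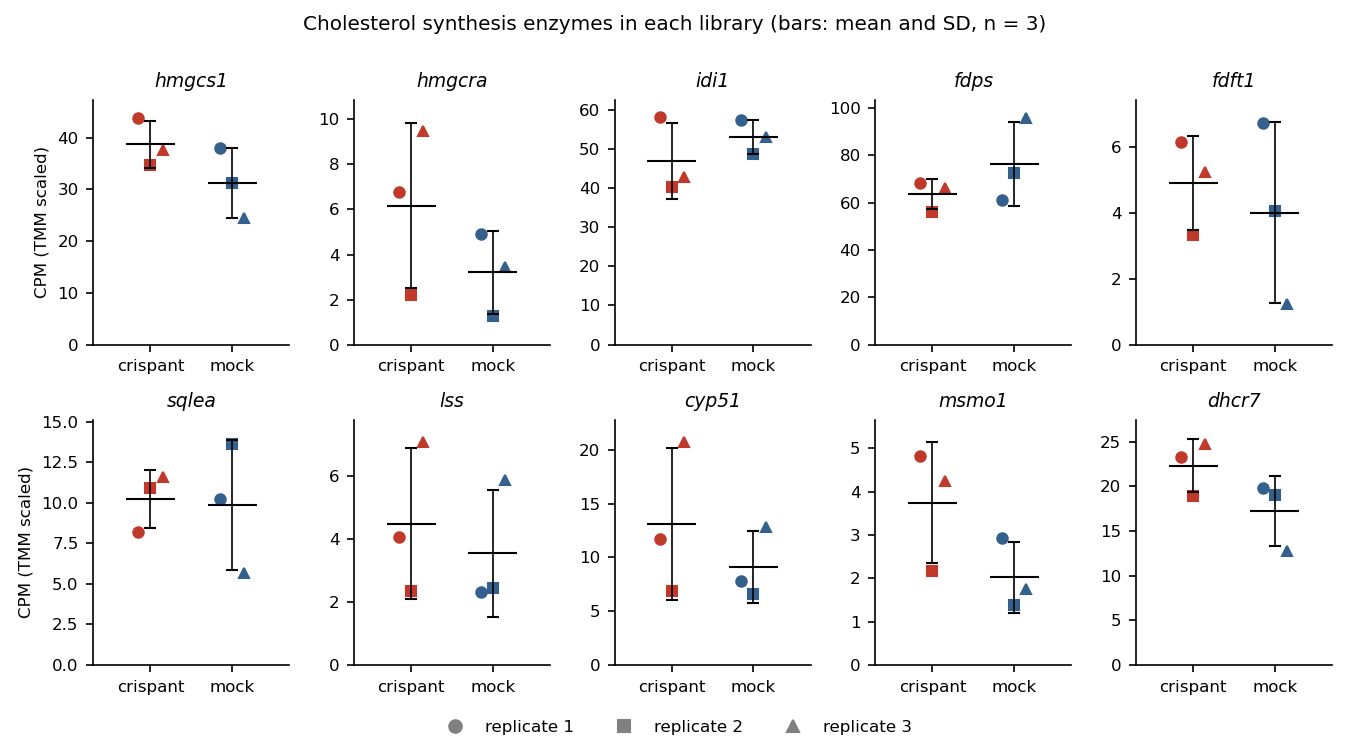
Counts relative to the TMM-scaled library total (CPM, linear axes from 0) of each of the 10 enzymes in crispants (red, left) and mock controls (blue, right), with 1 point per library and the mean and SD of 3 libraries. The points of the 2 groups overlap in all 10 panels, and crispant replicate 2 (square) is the lowest crispant in 9 of them.

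The first pair of enzymes feeds and controls the mevalonate steps. *hmgcs1* (ENSDARG00000103025, GRCz10 chr10:6009365-6033188) encodes HMG-CoA synthase, which makes the substrate of HMG-CoA reductase. Its level, in CPM (counts relative to the library total, scaled by TMM), was 43.7, 34.7 and 37.7 in crispants, against 38.0, 31.3 and 24.5 in mock controls. The means were 38.7 ± 4.59 CPM in crispants and 31.3 ± 6.72 CPM in mock controls (SD, n = 3 each). Mock control replicate 1 lay above crispant replicates 2 and 3, and the lowest library was mock control replicate 3. On the log2 scale the fitted difference, crispants minus mock controls, was 0.31 ± 0.23 (estimate ± standard error, as for the enzymes that follow).

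*hmgcra* (ENSDARG00000052734, chr5:50326153-50346118) encodes one of the zebrafish copies of HMG-CoA reductase, the rate-controlling enzyme of the pathway and the target of statins. Its values were 6.78, 2.22 and 9.49 CPM in crispants, against 4.90, 1.28 and 3.43 CPM in mock controls, from 250, 89 and 391 counts in crispants and 177, 49 and 98 counts in mock controls. Crispant replicates 1 and 3 were above every mock control, but crispant replicate 2 was below mock control replicates 1 and 3. With all 6 libraries, the fitted log2 fold change of 0.94 was the highest of the 10; its standard error was 0.63 and its 95% interval ran from -0.49 to 2.38 (edgeR, unadjusted p = 0.169, adjusted p = 0.999). The highest library was 4.26 times the lowest within crispants and 3.84 times within mock controls, both more than the ratio of the group means, 6.17 ± 3.67 CPM in crispants and 3.20 ± 1.82 CPM in mock controls. With 1 library left out, the fitted value ran from 0.49 without crispant replicate 3 to 1.39 without mock control replicate 1. Without crispant replicate 3, *msmo1* was higher at 0.79. The value of *hmgcra* was 0.56 without mock control replicate 2. It was 1.38 without crispant replicate 2 (edgeR, unadjusted p = 0.0472, adjusted p = 0.9999). With sample quality weights in limma-voom it was 1.73.

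The other copy, *hmgcrb* (ENSDARG00000105206, chr21:2480189-2507425), is not among the 10 but carried most of the reductase transcript. Per length, it had 16.1, 17.8 and 14.7 FPKM in crispants and 14.9, 14.8 and 20.1 FPKM in mock controls, and its log2 fold change was -0.04. The *hmgcra* level was 10.7, 3.16 and 16.2% of the *hmgcrb* level in crispants and 8.37, 2.20 and 4.26% in mock controls. Thus the copy with the larger fitted difference was the minor one in every library.

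Isoprenoid units are made and joined by the next pair. *idi1* (ENSDARG00000019976, chr24:3437586-3445316) encodes isopentenyl diphosphate isomerase, which interconverts the isoprenoid building blocks. It had 58.0, 40.1 and 42.7 CPM in crispants, against 57.4, 48.7 and 53.0 CPM in mock controls. Crispant replicate 1 was above every mock control, and crispant replicates 2 and 3 were below every mock control. The fitted difference was -0.18 ± 0.21, and it was 0.036 with sample quality weights in limma-voom.

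*fdps* (ENSDARG00000040890, chr16:14103231-14133011) encodes farnesyl diphosphate synthase, whose product leads to sterols and to protein prenylation. Its values were 68.5, 56.3 and 66.2 CPM in crispants, against 61.2, 72.4 and 95.8 CPM in mock controls, with means of 63.7 ± 6.52 CPM in crispants and 76.5 ± 17.7 CPM in mock controls. This was the only one of the 10 enzymes with its highest value in mock control replicate 3, and mock control replicate 1 was below crispant replicates 1 and 3. Its fitted difference of -0.26 ± 0.22 was the lowest of the 10 with all 6 libraries, and without mock control replicate 3 it was -0.05. A pseudogene on the same strand, BX005429.1, overlaps the gene and had 5, 1 and 17 counts in crispants and 0 in each mock control, few beside the counts of *fdps*.

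Squalene is made, oxidised and closed into rings by the following 3 enzymes, and the sign of each turned under at least 1 of the alternatives. *fdft1* (ENSDARG00000101062, chr20:53101980-53134084) encodes squalene synthase, the first enzyme that serves sterols alone. It had 6.13, 3.32 and 5.22 CPM in crispants, against 6.70, 4.04 and 1.23 CPM in mock controls. Mock controls held both the highest and the lowest library, and mock control replicate 3, with 35 counts, was the lowest by far. With all 6 libraries the fitted difference was 0.29 ± 0.57, and without mock control replicate 3 it was -0.12.

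*sqlea* (ENSDARG00000079946, chr16:43497274-43510214) encodes squalene epoxidase, which adds the first oxygen. It had 8.17, 10.9 and 11.6 CPM in crispants, all inside the mock control values of 10.3, 13.6 and 5.67 CPM. At 0.05 ± 0.36 it was the enzyme nearest to 0. The sign turned without mock control replicate 3 (-0.21), without crispant replicate 3 (-0.05) and with sample quality weights (-0.48).

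*lss* (ENSDARG00000061274, chr9:38671985-38690596) encodes lanosterol synthase, which closes the rings. It had 4.07, 2.35 and 7.09 CPM in crispants, against 2.33, 2.45 and 5.88 CPM in mock controls. The third replicate was the highest library of each group, and the libraries differed more within groups than between them. The fitted difference of *lss* was 0.35 ± 0.53, and -0.14 without crispant replicate 3. With the replicate number as a block it was 0.34 ± 0.36.

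Lanosterol is turned into cholesterol by the last group, which held the second largest fitted difference. *cyp51* (ENSDARG00000042641, chr19:598848-617437) encodes lanosterol 14-alpha-demethylase. It had 11.7, 6.85 and 20.7 CPM in crispants, against 7.81, 6.60 and 12.8 CPM in mock controls. Crispant replicate 3 was the highest and mock control replicate 3 the next. Fitted on all libraries the difference was 0.53 ± 0.45, and without crispant replicate 3 it was 0.03. The gene overlaps *slc6a18* on the same strand, which had 43, 44 and 39 counts in crispants and 25, 36 and 12 counts in mock controls.

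*msmo1* (ENSDARG00000055876, chr1:20223614-20235835) encodes methylsterol monooxygenase, which acts in the removal of methyl groups from the sterol ring. Its values were 4.83, 2.17 and 4.25 CPM in crispants, against 2.94, 1.38 and 1.75 CPM in mock controls. Crispant replicates 1 and 3 were above every mock control, and crispant replicate 2 was below mock control replicate 1. The means were 3.75 ± 1.40 CPM in crispants and 2.02 ± 0.813 CPM in mock controls. With all 6 libraries *msmo1* had the smallest p-value of the 10, at a fitted difference of 0.89 ± 0.46 and a 95% interval from -0.17 to 1.94 (edgeR, unadjusted p = 0.0882, adjusted p = 0.989). With 1 library left out, the difference ran from 0.66 without crispant replicate 1 to 1.26 without mock control replicate 1 (edgeR, unadjusted p = 0.0385, adjusted p = 0.838). Without crispant replicate 2 it was 1.19 (edgeR, unadjusted p = 0.0408, adjusted p = 0.9999).

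*dhcr7* (ENSDARG00000103226, chr2:28666537-28687113) encodes 7-dehydrocholesterol reductase, the enzyme deficient in human Smith-Lemli-Opitz syndrome. It had 23.3, 19.0 and 24.7 CPM in crispants, against 19.9, 19.1 and 12.8 CPM in mock controls. Crispant replicates 1 and 3 were above every mock control, whereas crispant replicate 2 was just below mock control replicates 1 and 2. Here the fitted difference was 0.37 ± 0.26, and its 95% interval ran from -0.22 to 0.96.

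**Figure D2:**
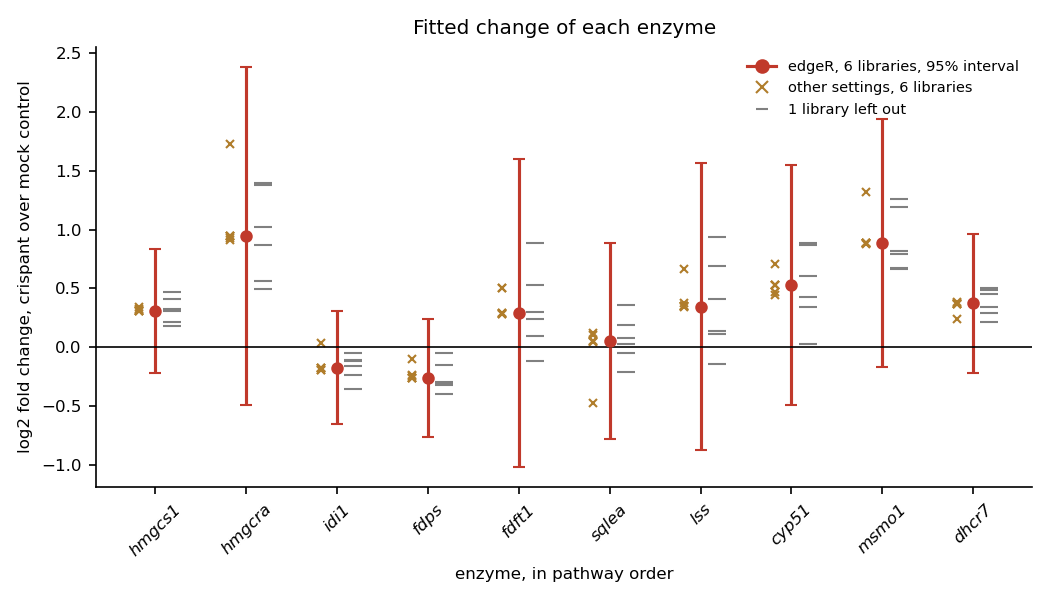
Log2 fold change (crispants over mock controls) of each enzyme in pathway order from edgeR on 6 libraries with its 95% interval (red), from the other settings on 6 libraries (crosses) and with 1 library left out (grey dashes). All 10 intervals cross 0, and *hmgcra* and *msmo1* have the highest fitted values at 0.94 and 0.89.

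The enzymes also differed in level from one another, along the pathway rather than between groups. Compared per length as FPKM, the mean over the 6 libraries was 22.7 for *fdps*, 15.1 for *idi1*, 10.05 for *hmgcs1* and 8.98 for *dhcr7*. *cyp51* averaged 4.20 FPKM, *sqlea* 3.61 FPKM, *fdft1* 2.26 FPKM, *msmo1* 1.78 FPKM, *lss* 1.54 FPKM and *hmgcra* 1.18 FPKM. Of neighbours in this order, only *fdps* and *idi1* had ranges over the libraries that did not overlap, 18.3 to 30.8 FPKM for *fdps* and 12.1 to 17.5 FPKM for *idi1*. Within each library, *idi1* was above *hmgcs1* in 6 of 6 libraries and *dhcr7* above *cyp51* in 6 of 6, whereas *cyp51* exceeded *sqlea* in 3 of 6 and *msmo1* exceeded *lss* in 3 of 6. The transcripts that make and join isoprenoid units were thus the most abundant of the 10. *hmgcra* had the lowest mean, with *lss* above it in 4 of 6 libraries.

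**Figure D3:**
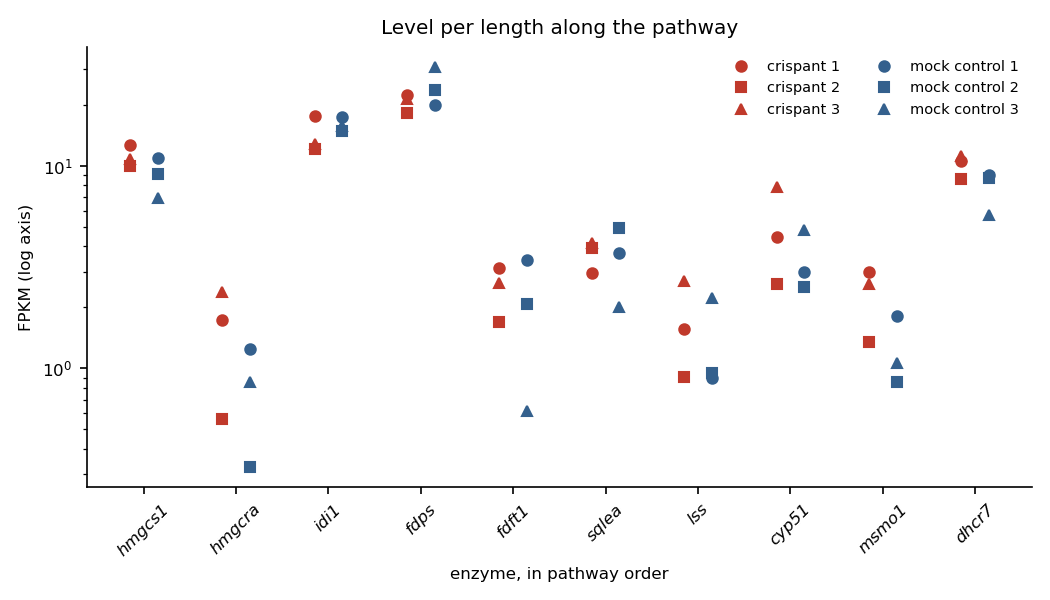
FPKM of the 10 enzymes in pathway order on a log axis, with 1 point per library, crispants (red) left of mock controls (blue). *fdps* has the highest mean over the 6 libraries, 22.7 FPKM, and *hmgcra* the lowest, 1.18 FPKM, and the 4 most abundant enzymes have the smallest spread among libraries.

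How far the libraries of 1 group lay apart differed greatly among the enzymes. The ratio of the highest to the lowest library within crispants was 1.22 for *fdps*, 1.26 for *hmgcs1* and 1.30 for *dhcr7*, against 4.26 for *hmgcra*, 3.03 for *cyp51* and 3.02 for *lss*. Within mock controls it was 1.18 for *idi1* and 5.47 for *fdft1*. For all 10 enzymes the larger of these ratios exceeded the ratio of the group means. The spread within crispants exceeded that within mock controls for 5 of the 10. Counts ran from 35 to 2778 a library, for which counting alone gives an error of 16.9% and 1.90%.

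Several enzymes were high or low in the same libraries. Crispant replicate 2 was the lowest crispant for 9 of the 10, with *sqlea* the exception. Crispant replicate 3 was the highest of all libraries for *hmgcra*, *lss*, *cyp51* and *dhcr7*, and crispant replicate 1 for *hmgcs1*, *idi1* and *msmo1*. Among mock controls, replicate 2 was the lowest of all libraries for *hmgcra*, *cyp51* and *msmo1*, and replicate 3 for *hmgcs1*, *fdft1*, *sqlea* and *dhcr7*. The median deviation of the 10 from their own means, on the log2 scale, was 0.25, -0.28 and 0.38 in crispants and 0.11, -0.08 and -0.32 in mock controls. One crispant library thus lay below 2 of the mock controls, and the SD of these medians within groups, 0.29, was about as large as the median fold change of the enzymes. Summed over the 10, the level was 235, 178 and 229.7 CPM in crispants and 211, 201 and 217 CPM in mock controls. This sum is carried by *fdps*, *idi1* and *hmgcs1*.

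**Figure D4:**
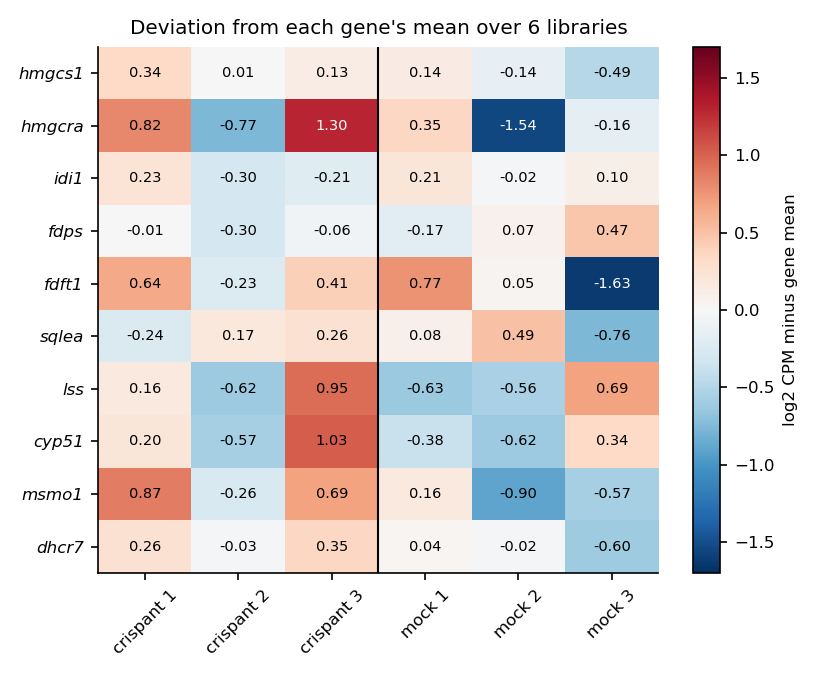
Log2 CPM of each enzyme (rows, pathway order) in each library (columns, crispants left of the line and mock controls right) minus the mean of that enzyme over the 6 libraries. Crispant replicate 2 is negative for 8 of the 10 enzymes, and mock control replicate 3 holds the most negative value, -1.63 for *fdft1*.

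As a description over 6 libraries that share their scaling factors, the enzymes did not all vary as one. The Pearson correlation of each enzyme with the mean of the other 9 was 0.88 for *msmo1*, 0.82 for *hmgcra*, 0.66 for *dhcr7*, 0.62 for *hmgcs1*, 0.55 for *cyp51* and 0.53 for *fdft1*. It was lower for *lss* (0.31), *idi1* (0.05), *sqlea* (-0.11) and *fdps* (-0.37). The abundant isoprenoid enzymes *idi1* and *fdps* therefore did not share the library pattern of *hmgcra* and *msmo1*. Of the 10431 other genes with a mean of at least 10 CPM, those whose log2 CPM most resembled the mean standardised level of the 10 included *chuk* (r = 0.96), *sytl2b* (r = 0.94), *si:ch211-113g11.6* (r = 0.93) and *adssl1* (r = 0.93). *chuk*, which encodes a kinase of NF-kappaB signalling, had 57.5, 44.4 and 59.4 CPM in crispants and 52.8, 50.1 and 44.9 CPM in mock controls, again lowest among crispants in replicate 2. The 4 correlations given are among the 5 highest of 10431, each over 6 points.

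The other enzymes of the pathway lay on both sides of 0. Of 13 further enzymes, 12 were found and tested. None was called in edgeR, DESeq2 or limma-voom. In edgeR 2 were below an unadjusted p of 0.05, both lower in crispants, against 5.49% of all tested genes. Of the 12, 4 had a fitted log2 fold change above 0 and 8 below, and the median was -0.05. Among all tested genes 54.5% were below 0. Without mock control replicate 3 the count turned, with 8 of the 12 above 0 and a median of 0.12. It also turned with sample quality weights in limma-voom (9 above 0, median 0.14) and without crispant replicate 2 (7 above 0, median 0.04). With all 6 libraries in edgeR, 12 of the 22 tested enzymes of the pathway, the 10 included, were above 0 and 10 below. Their median was 0.06, and the 22 were not counted together in the other settings. None of the 22 had crispants wholly above mock controls, as 6.5% of all tested genes had, and 2 had crispants wholly below, as did 5.44% of all tested genes. These were *acat2*, an acetyl-CoA acetyltransferase that makes acetoacetyl-CoA at the head of the pathway, and *lbr*, a sterol reductase that is also a protein of the inner nuclear membrane.

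*acat2* (chr20:31019716-31028267) had 21.5, 21.4 and 18.7 CPM in crispants, against 36.4, 33.3 and 43.0 CPM in mock controls. The groups were well apart, with means of 20.5 ± 1.60 CPM in crispants and 37.6 ± 4.93 CPM in mock controls, and the fitted log2 difference was -0.87 ± 0.21. It was still not called (edgeR, unadjusted p = 0.00264, adjusted p = 0.489). Its adjusted p was 0.0535 in DESeq2 and 0.0293 in limma-voom with sample quality weights, where its size was under the minimum of 1, and ran up to 1 over the alternatives. *lbr* (chr20:36492784-36514043) had 176, 166 and 172 CPM in crispants, against 243, 240.0 and 247 CPM in mock controls. Its libraries agreed closely within each group, and the fitted log2 difference was -0.51 ± 0.18 (edgeR, unadjusted p = 0.0203, adjusted p = 0.757). *tm7sf2*, the other gene for that reductase step, was at 0.72 on the same scale, and its groups overlapped.

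The groups overlapped for all 11 tested regulators of the pathway, genes that activate SREBP2 or hold it back. Among all tested genes, crispants lay wholly above mock controls for 6.5% and wholly below for 5.44%. None of the 11 was called in edgeR, DESeq2 or limma-voom. At an unadjusted p below 0.05 edgeR found 0 of the 11 and 5.49% of all tested genes. At these shares, 0 of 11 says little about the regulators. Of the 11, 6 were above 0 and 5 below, and 45.5% of all tested genes were above 0. *srebf2*, which encodes SREBP2, had 86.5, 105 and 114 CPM in crispants, against 68.8, 96.6 and 59.6 CPM in mock controls, a fitted log2 difference of 0.44 ± 0.23, and of 0.063 with sample quality weights. *insig1*, whose protein holds the SREBP complex in the endoplasmic reticulum and is itself an SREBP target in mammals, had 42.1, 23.6 and 28.7 CPM in crispants and 27.5, 23.5 and 18.8 CPM in mock controls. Mock control replicate 3 stood far below the others for *srebf1* (0.735 CPM, against 10.1 to 29.1 CPM in the other 5 libraries) and for *scap*, the escort of SREBP (1.23 CPM, against 9.32 to 26.0 CPM). The same library was the lowest for *fdft1*, *hmgcs1*, *sqlea* and *dhcr7*, and what that library has to do with their fitted differences was not tested beyond the values without it.

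Genes that take up, export and store sterol were above and below 0 in like number. Of 11 tested genes of uptake and transport, none was called in edgeR, DESeq2 or limma-voom, and 1 was below an unadjusted p of 0.05 in edgeR (5.49% of all tested genes). Of the 11, 6 were above 0 and 5 below, with crispants wholly above mock controls for 3 (6.5% of all tested genes) and wholly below for 1 (5.44% of all tested genes). *scarb1* (chr10:44853122-44899915), the receptor for high-density lipoprotein, had 42.5, 32.7 and 33.0 CPM in crispants, against 19.9, 24.5 and 23.2 CPM in mock controls, a fitted log2 difference of 0.68 ± 0.21 (edgeR, unadjusted p = 0.0124, adjusted p = 0.689). *npc1*, which exports cholesterol from lysosomes, and *ldlrap1b* were the others above, at 0.28 for *npc1* and 1.01 for *ldlrap1b*. *ldlrap1b* had only 0.280 CPM in mock control replicate 3, against 1.85 and 2.47 CPM in the other mock controls. *ldlrap1a*, like *ldlrap1b* an adaptor of the low-density lipoprotein receptor, was below at -0.36. Crispants and mock controls overlapped for the receptor gene *ldlrb*.

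Of 10 tested genes of export, storage and breakdown, edgeR called 0 and found 2 below an unadjusted p of 0.05 (5.49% of all tested genes). Of the 10, 4 were above 0 and 6 below. Crispants lay wholly below mock controls for *soat2* and *cyp46a1.1*, as they did for 5.44% of all tested genes. *soat2* (chr6:58742937-58770441) encodes a sterol O-acyltransferase, which esterifies cholesterol for storage or secretion. It had 1.85, 3.42 and 1.77 CPM in crispants, against 11.2, 11 and 9.31 CPM in mock controls, with means of 2.35 ± 0.934 CPM in crispants and 10.5 ± 1.04 CPM in mock controls. The fitted log2 difference was -2.16 ± 0.36. The call depended on the test, since it missed the threshold in edgeR (adjusted p = 0.258) and passed it in DESeq2 (adjusted p = 5.38e-06) and in limma-voom with sample quality weights (adjusted p = 0.00268); over all alternatives the adjusted p reached 1, with 1 crispant library left out, while the fitted difference ran from -2.51 to -1.99. *igsf8* overlaps it on the opposite strand, and whether reads were counted by strand is not given in the sources used here, but the counts of *igsf8* were 747, 676 and 876 in crispants and 711, 632 and 318 in mock controls, a different pattern. The related gene *soat1* went the other way, at 1.16 ± 0.59 with overlapping groups. It had 13.2, 6.35 and 16.1 CPM in crispants, against 5.21, 8.99 and 1.72 CPM in mock controls. *cyp46a1.1*, a gene for cholesterol hydroxylase, was at -0.83, from 76, 84 and 117 counts in crispants and 122, 160 and 141 in mock controls. Another row of the same gene family overlaps it on the same strand. That row had 2, 0 and 1 counts in crispants and 33, 16 and 3 in mock controls, also lower in crispants. Whether reads of one were counted for the other was not tested.

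The neighbouring lipid pathways were as mixed. Of 10 tested genes of other isoprenoid branches, none was called in edgeR, DESeq2 or limma-voom. At an unadjusted p below 0.05 edgeR found 0 of them (5.49% of all tested genes), and 2 were above 0 and 8 below. *ggps1*, which makes geranylgeranyl diphosphate from farnesyl diphosphate, was the one with the groups apart. It had 29.7, 31.4 and 35.0 CPM in crispants and 23.6, 22.3 and 28.7 CPM in mock controls. Crispants lay wholly above mock controls for 6.5% of all tested genes. The largest log2 fold change of the 10 genes was that of *fntb*, a farnesyltransferase subunit, at -0.44 with overlapping groups, and -0.034 without mock control replicate 3, where 8 of the 10 genes were above 0. Of 11 tested genes of fatty acid synthesis, edgeR called 0 and found 2 below an unadjusted p of 0.05 (5.49% of all tested genes), and 4 were above 0 and 7 below. *elovl5* (chr13:2236616-2259761), a fatty acid elongase, had 30.1, 18.8 and 37.6 CPM in crispants, against 13.4, 12.3 and 9.0 CPM in mock controls. Its fitted log2 difference of 1.32 ± 0.31 was not called in edgeR (adjusted p = 0.489) but was called in DESeq2 (adjusted p = 0.0339) and in limma-voom with sample quality weights (adjusted p = 0.0245), with an adjusted p of up to 1 when 1 library was left out and a fitted difference of 1.08 to 1.57 over all alternatives. *acaca* was also wholly above (6.5% of all tested genes), at 0.37, and *elovl6* wholly below (5.44% of all tested genes), at -0.68. *acly*, which supplies cytosolic acetyl-CoA to both pathways, was at -0.01.

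**Figure D5:**
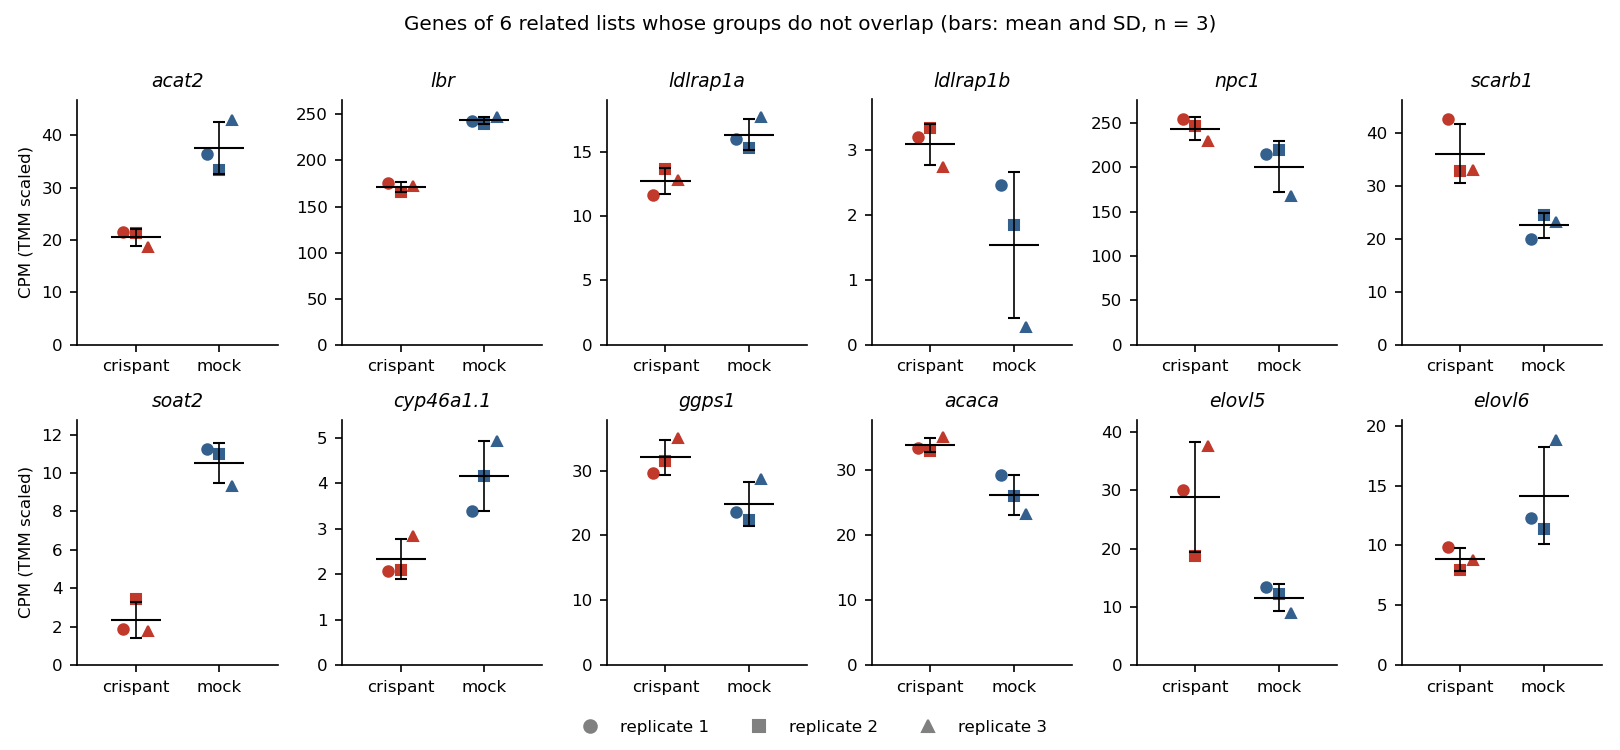
CPM (TMM scaled, linear axes from 0) in crispants (red, left) and mock controls (blue, right) of the 12 genes of the related lists whose groups do not overlap, with 1 point per library and the mean and SD of 3 libraries. *soat2* has the largest fold difference between group means, 2.35 against 10.5 CPM, and *elovl5* lies higher in crispants, 28.8 against 11.6 CPM.

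The tissue markers had fitted differences mostly below 0, where 54.5% of all tested genes also lay. Fitted log2 fold changes were below 0 for 11 of 11 nervous system markers (median -0.33), 10 of 10 skeletal muscle markers (median -0.64), 11 of 11 rows of blood cell markers (median -1.18), 13 of 14 tested markers of yolk syncytial layer and liver (median -0.33) and 7 of 8 epidermis markers (median -0.17). None was called in edgeR, and DESeq2 and limma-voom with sample quality weights each called 1, the myeloid marker *lyz*, lower in crispants. Of the 54 tested markers, 13 were below an unadjusted p of 0.05 in edgeR, all lower in crispants, among them 6 of blood and 4 of the nervous system, against 5.49% of all tested genes. Crispants lay wholly below mock controls for 10 of the 54 (5.44% of all tested genes) and wholly above for 1 (6.5% of all tested genes). The medians for skeletal muscle, blood, yolk syncytial layer and liver, and epidermis rested much on mock control replicate 3. That for the nervous system did not. Without that library the median was -0.35 for nervous system, -0.27 for skeletal muscle and -0.49 for blood cell markers, and it was above 0 for yolk syncytial layer and liver (0.14) and for epidermis (0.09). The summed level of the nervous system markers was 888.4 to 1100 CPM in crispants and 1308 to 1379 CPM in mock controls. The sums of yolk and liver markers were 18762 to 21358 CPM in crispants and 19216 to 33156 CPM in mock controls, those of muscle 11094 to 12475 and 12092 to 24639 CPM, those of blood 1086 to 2081 and 1452 to 7107 CPM, and those of epidermis 19457 to 24238 and 17911 to 36147 CPM. Of these 5 sums, that of the nervous system markers alone had groups that did not overlap. The part of these tissue differences in the levels of the enzymes was not tested.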

How the data were processed

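PolyA selected, strand-specific RNA of whole embryos was sequenced in 3 crispant and 3 mock control libraries, grouped by the sample labels. The authors aligned reads to GRCz10 with HISAT2 and deposited raw read counts per gene. The counting tool and annotation release are not given in the sources used here. The authors also deposited FPKM, in which counts are relative to gene length and to DESeq2-scaled library totals, and columns of their own DESeq2 comparison, which were not used. Counts were scaled by TMM, filtered with filterByExpr (minimum count 10) and tested in edgeR 4.0.16 (R 4.3.3) with Benjamini-Hochberg adjustment over 20812 genes. CPM uses the TMM-scaled totals. FPKM served only to compare genes. The test was checked on simulated counts with changes larger than those fitted for the enzymes, so the check does not cover changes of their size.

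Alternatives were DESeq2 size factors, no low-count filter, DESeq2 1.42.0, limma-voom 3.58.1 with and without sample quality weights, the replicate number as a block, calls without a minimum fold, and omission of each library in turn. All 10 enzymes are named. From the 6 related lists, genes whose groups do not overlap and the gene with the largest change were taken by rule. *hmgcrb*, *tm7sf2*, *insig1*, *srebf1*, *scap*, *ldlrb*, *soat1*, *acly* and *lyz* were named besides, after their values were seen. One gene that the rule on likeness names is not reported here. Entries *sqleb*, *amfrb* and *lrp1aa* were not matched. The enzymes and lists were chosen with earlier results of these data known. P-values set the difference between the groups against the spread among libraries within them, and depth was 33841805 to 40515803 counts.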

Additional observations from a re-analysis of the deposited data

How the results depend on the processing

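None of the 10 enzymes passed the threshold in any of the alternatives run, edgeR, DESeq2 and limma-voom included. The median log2 fold change of the enzymes, 0.33 with all libraries, stayed between 0.31 and 0.37 in the settings that keep all 6 libraries, and ran from 0.14 without crispant replicate 3 to 0.51 without crispant replicate 2. The number of enzymes above 0 was 8, except for 6 without crispant replicate 3 and 6 without mock control replicate 3. Signs turned for *idi1* (0.036) and *sqlea* (-0.48) with sample quality weights. With 1 library left out, *fdft1* ran from -0.12 to 0.88, *sqlea* from -0.21 to 0.36 and *lss* from -0.14 to 0.93. Replicate numbers were not taken to pair the samples in the main test. Libraries with the same number had correlations of 0.232, -0.058 and -0.117 in their deviations from the group means, which cannot settle whether they were paired. With the replicate block the median was 0.36 and 0 enzymes passed. The standard error with the block was 0.37 for *hmgcra* (0.63 without it) and 0.28 for *cyp51* (0.45 without it). It rose to 0.29 for *dhcr7* (from 0.26) and to 0.39 for *sqlea* (from 0.36). The unadjusted p of *hmgcra* with the block was 0.0532 in edgeR. Over all genes, calls numbered 0 in edgeR, 2 without the filter, 165 in DESeq2, 324 with sample quality weights, 0 in limma-voom without weights and 0 with the block, and 20 without mock control replicate 3 and 1 without mock control replicate 1. At 3 libraries a group, the edgeR intervals of *hmgcra*, *fdft1*, *lss*, *cyp51* and *msmo1* could not be told from either no difference or a doubling.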
